A study of Mus musculus with 12 samples.

Results

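The BCL2 family sets whether a T cell lives or dies through the mitochondrial pathway of apoptosis. The 10 genes described here were taken by their symbols from the deposited gene tables, 10 of 23248 features. Bcl2, Bcl2l1 (which encodes BCL-XL) and Mcl1 encode survival proteins that hold the others in check. Bax and Bak1 encode the effectors that open pores in the outer mitochondrial membrane. Bcl2l11 (BIM), Bid, Bad, Bbc3 (PUMA) and Pmaip1 (NOXA) encode BH3-only proteins, which start apoptosis by binding the survival proteins or the effectors. In T cells, BCL2 and MCL1 keep resting cells alive, BCL-XL is induced on activation, and BIM removes cells when survival cytokines run out. Much of this control acts on the proteins, by cleavage, phosphorylation or breakdown, and RNA levels do not show it.

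CD4+ T cells were sorted from C57BL/6 mouse spleen and their RNA was sequenced. T follicular helper (TFH) cells, the helpers of germinal centre B cells, were CXCR5+PD-1+, and Non-TFH cells were CXCR5-PD-1-. The conditional knockout (cKO) mice were CD4-cre Ets1 flox/flox, and the WT mice were Ets1 flox/flox with no Cre named, so that all 12 libraries carry the floxed alleles of Ets1, a transcription factor of lymphocytes. CD4-cre acts in developing T cells before the CD4 and CD8 lineages part. The groups were cKO TFH, WT TFH, cKO Non-TFH and WT Non-TFH, with 3 libraries each. The labels do not say that the libraries of a group came from separate mice, so p-values measure the spread between these libraries, which may be technical. The labels give neither age nor immunisation.

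Levels are FPKM, fragments per length of transcript and depth of library, scaled between libraries by the median ratio. Being per length, they can be compared between genes. A log2 change is the difference of mean log2(scaled FPKM + 1), which understates the change of genes near or under 1 FPKM. A gene passed a comparison when its limma p, adjusted by Benjamini-Hochberg over all 11112 tested features, was under 0.05. With 3 libraries against 3, an exact permutation test of a single gene cannot give a p under 0.1, so the limma test, which pools the spread over all genes and groups, is the test used. The tables hold no counts, so the depth is unknown. All 10 genes had an entry of their own in each of the 12 libraries, and all 10 were tested. The confidence bounds that the authors' tables give lay at a median of 9.67% either side of the value, and in 13 of the 120 entries they were wider than 50%.

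Ets1 stood at 252 ± 26.1 FPKM in cKO TFH and 196 ± 22.9 FPKM in WT TFH cells, and was called higher in cKO (log2 change 0.37, limma adjusted p = 0.0151). It stood at 400 ± 18.01 FPKM in cKO Non-TFH and 407 ± 5.12 FPKM in WT Non-TFH cells (SD, n = 3 each), where the change of -0.03 did not pass (adjusted p = 0.911). This is a value over the whole gene, to which exons outside a floxed segment also give reads, so it does not check the deletion, and the genotypes below are those of the labels. The sort was visible: 8 of 8 TFH markers were higher in TFH than in Non-TFH cells in cKO and in WT mice, and Cd3e and Cd4 were present in all libraries. The TFH libraries also held transcripts of other cells. The summed level of 9 measured macrophage markers ranged from 180 to 239 FPKM in cKO TFH, 1108 to 1982 in WT TFH, 34.3 to 43.3 in cKO Non-TFH and 13.3 to 22.9 in WT Non-TFH libraries, and 9 of 9 were lower in cKO than in WT TFH cells, while 5 of 9 were higher in cKO than in WT Non-TFH cells. The sum of 6 measured B cell markers ranged from 35.4 to 41.2 FPKM in cKO TFH, 61.8 to 71.0 in WT TFH, 2.27 to 2.58 in cKO Non-TFH and 1.16 to 2.64 in WT Non-TFH libraries, and 3 of 5 tested were lower in cKO than in WT TFH cells. The proliferation markers Mki67, Top2a and Ccnb1 summed to 148 to 182 FPKM in cKO TFH, 57.6 to 86.5 in WT TFH, 13.9 to 20.9 in cKO Non-TFH and 3.90 to 4.72 in WT Non-TFH libraries; 2 of 3 were higher in cKO TFH and 3 of 3 in cKO Non-TFH cells. CD8 T cell markers (Cd8a and Cd8b1) summed to 38.0 to 46.8 FPKM in cKO TFH, 7.54 to 12.3 in WT TFH, 95.9 to 107 in cKO Non-TFH and 10.03 to 14.6 in WT Non-TFH libraries. Of these, 2 of 2 were higher in cKO TFH and 1 of 2, Cd8b1, in cKO Non-TFH cells. The sums were mostly Cd8b1. Cd8a averaged 3.22 FPKM in cKO TFH, 1.63 in WT TFH, 0.258 in cKO Non-TFH and 0.0867 in WT Non-TFH cells. Cd8b1 averaged 39.8, 8.41, 101 and 11.75 FPKM in the same order. In Non-TFH cells the sum thus rests on Cd8b1 alone.

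Other marker lists moved with genotype too. Of 4 tested plasma cell markers, 1 was higher and 1 lower in cKO TFH and 3 were higher in cKO Non-TFH cells, with sums of 47.8 to 65.8 FPKM in cKO Non-TFH and 20.02 to 20.9 FPKM in WT Non-TFH libraries. Foxp3 had no feature of its own, so the regulatory T cell list lacks it and does not by itself show such cells. Of the 3 regulatory T cell markers measured (Il2ra, Ikzf2 and Ctla4), 2 were lower in cKO TFH and 2 higher in cKO Non-TFH cells. They summed to 138 to 173 FPKM in cKO TFH, 267 to 287 in WT TFH, 38.4 to 64.2 in cKO Non-TFH and 20.7 to 29.7 in WT Non-TFH libraries. Of 5 naive T cell markers, 3 were lower in cKO TFH, and 1 was higher and 2 lower in cKO Non-TFH cells. Of 8 TFH markers, 5 were higher and 1 lower in cKO TFH, and 3 were higher in cKO Non-TFH cells. Of 4 tested dendritic cell markers, 1 was lower in cKO TFH cells. Of 2 NK cell markers, 1 was higher and 1 lower there. Of 5 neutrophil markers, 1 was higher in cKO Non-TFH cells. Their sum was 138 FPKM in the WT Non-TFH library of replicate 3, against 16.2 and 16.3 FPKM in the other two WT Non-TFH libraries. The 1 erythroid marker tested did not pass in either cell type. The part of these cells in the results below was not tested. In bulk RNA, fewer cells of a type and less RNA per cell cannot be told apart.

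The family had a different make-up in each cell type. TFH cells carried little Mcl1, Bak1, Bcl2l11 and Bbc3 and much Bax, Bid, Bad and Pmaip1, beside Non-TFH cells of the same genotype. All 10 genes passed this comparison in cKO mice, where 67% of all tested features did, with 4 higher and 6 lower in TFH cells (33.4% and 33.6% of all tested features). All 10 also passed it in WT mice, where 67.5% of all tested features did, with 5 higher and 5 lower (35.3% and 32.1%). At such a background, passing by itself says little about the family. Both genotypes gave the same sign for 9 of the 10 genes, and Bcl2l1 was the exception. Both comparisons are of separate libraries, but each shares its libraries with the genotype comparisons that follow.

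Fewer of the genes passed the comparisons of genotype. In TFH cells 5 of the 10 passed, where 30.7% of all tested features did: Bax, Bak1 and Bad were higher and Bid and Pmaip1 lower in cKO cells (15.6% and 15% of all tested features). In Non-TFH cells 4 of the 10 passed, where 20.3% of all tested features did, and all 4 (Bcl2, Bcl2l1, Bad and Pmaip1) were higher in cKO cells (11.8% of all tested features were higher and 8.57% lower). The median log2 change of the 10 genes was 0.19 in TFH cells, against 0.04 over all tested features, and 0.31 in Non-TFH cells, against 0.03. The difference between the genotype changes of both cell types passed for 4 of the 10 genes, Bcl2, Bcl2l1, Bid and Pmaip1, where 17.4% of all tested features did. All 4 differences (TFH minus Non-TFH) were negative, as were 10.5% of all tested features, against 6.82% that passed with a positive sign.

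**Figure D1:**
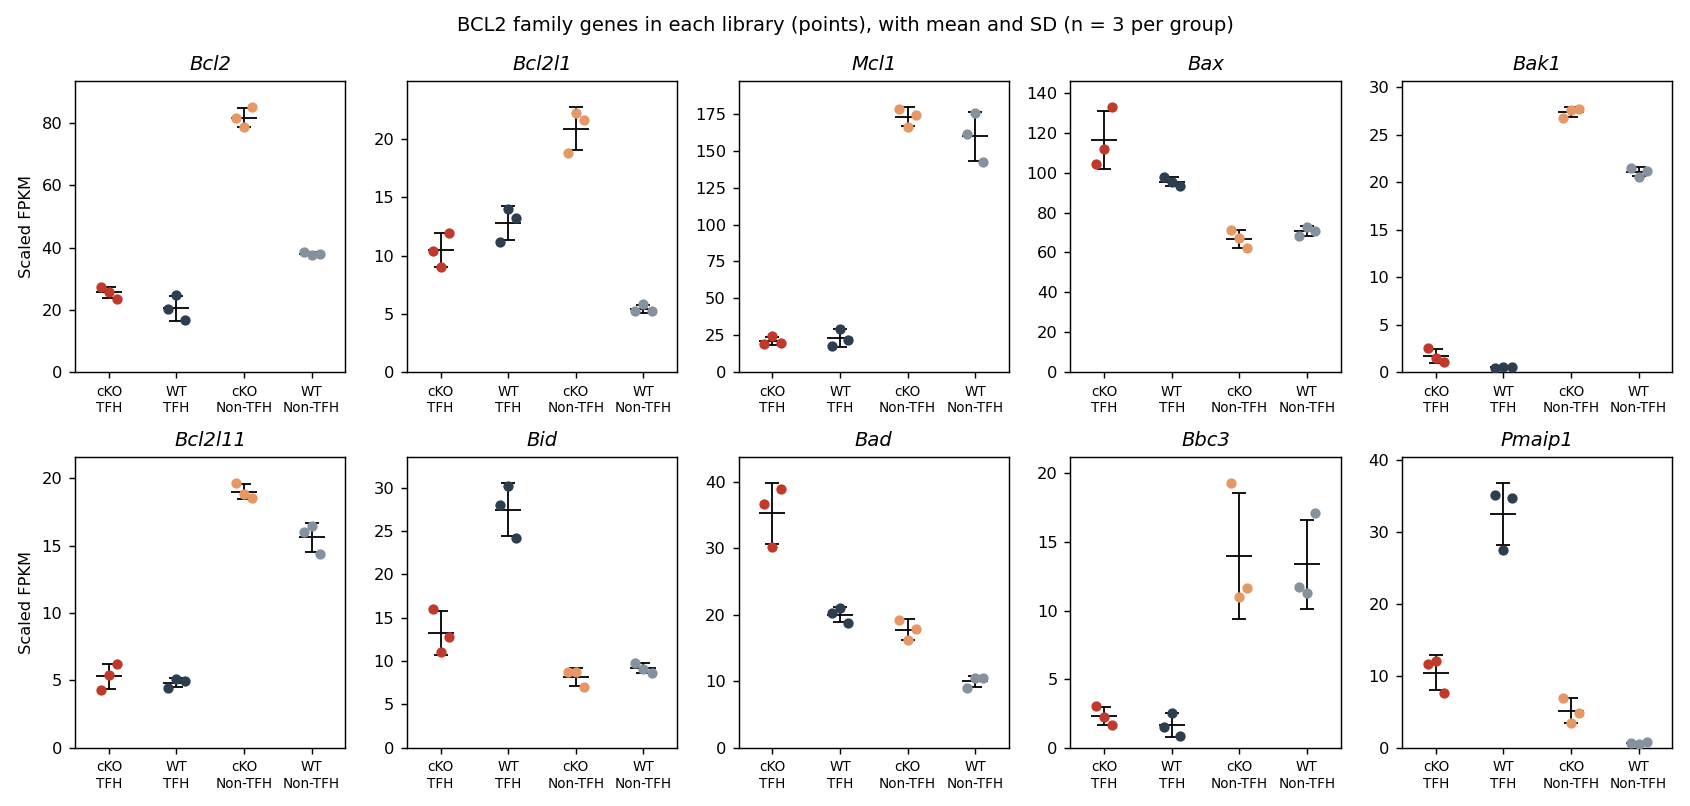
Level (scaled FPKM, linear axis from 0) of each of the 10 BCL2 family genes in the 12 libraries, with the mean and SD of each group (n = 3). Mcl1, Bak1, Bcl2l11 and Bbc3 stand far higher in both Non-TFH groups, Pmaip1 is highest in WT TFH cells, and Bcl2 and Bcl2l1 are highest in cKO Non-TFH cells.

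Among the survival genes, Bcl2 was highest in cKO Non-TFH cells and lowest in TFH cells of either genotype. Bcl2 (chromosome 1) stood at 81.7, 78.6 and 85.0 FPKM in cKO Non-TFH and at 38.7, 37.5 and 37.9 FPKM in WT Non-TFH libraries. It stood at 27.3, 25.9 and 23.6 FPKM in cKO TFH and at 20.2, 24.7 and 16.6 FPKM in WT TFH libraries. The Non-TFH groups lie far apart, while the TFH groups overlap. In Non-TFH cells the mean was 2.15 times as high in cKO as in WT (log2 change 1.08 ± 0.13 SE, adjusted p = 7.42e-05). The authors' upper bound of 1 of these entries, the cKO Non-TFH library of replicate 2, was not usable at 718185 FPKM, although its value lies between those of the other two. In TFH cells the change of 0.32 ± 0.13 did not pass (adjusted p = 0.0726), but without the WT TFH library of replicate 2 it was 0.46 with an adjusted p of 0.00946 (range over alternatives 0.00946 to 0.249). TFH cells had less Bcl2 than Non-TFH cells in cKO mice (log2 change -1.64 ± 0.13, adjusted p = 3.56e-07) and in WT mice (-0.88 ± 0.13, adjusted p = 6.45e-05, or -0.52 with no scaling between libraries). The genotype change in TFH cells minus that in Non-TFH cells was -0.76 ± 0.18 (adjusted p = 0.0121, and 0.0608 with no filter on low values, in a range from 0.00207).

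Bcl2l1 (chromosome 2), the gene of BCL-XL, turned its order between the cell types with the genotype. It stood at 18.8, 22.2 and 21.6 FPKM in cKO Non-TFH and at 5.25, 5.83 and 5.24 FPKM in WT Non-TFH libraries. In TFH libraries it stood at 10.4, 9.05 and 11.98 FPKM in cKO and at 11.2, 13.98 and 13.2 FPKM in WT. WT Non-TFH cells were the lowest group and cKO Non-TFH cells the highest, with both TFH groups between them and overlapping each other. The mean was 3.84 times as high in cKO as in WT Non-TFH cells (log2 change 1.76 ± 0.14, adjusted p = 3.23e-06). In TFH cells the genotype change was -0.27 ± 0.14 and did not pass (adjusted p = 0.162). TFH cells had less Bcl2l1 than Non-TFH cells in cKO mice (-0.94 ± 0.14, adjusted p = 7.84e-05) and more in WT mice (1.09 ± 0.14, adjusted p = 2.17e-05). The genotype change in TFH cells minus that in Non-TFH cells was -2.03 ± 0.19 (adjusted p = 4.27e-05). Several marker lists moved with Bcl2 and Bcl2l1 between the Non-TFH groups. Higher in cKO were 1 of 2 CD8 (Cd8b1), 3 of 4 plasma cell and 3 of 3 proliferation markers. So were 2 of 3 regulatory T cell, 5 of 9 macrophage and 3 of 8 TFH markers. Of 5 naive T cell markers 1 was higher and 2 lower. The CD8 markers (2 of 2) and 2 of 3 proliferation markers were also higher in cKO TFH cells, where Bcl2 and Bcl2l1 did not pass. The part of these lists was not tested.

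Mcl1 (chromosome 3), whose short-lived protein T cells need at every stage, separated the cell types and not the genotypes. It stood at 179, 166 and 174 FPKM in cKO Non-TFH and at 162, 176 and 143 FPKM in WT Non-TFH libraries. TFH libraries held 18.9, 24.4 and 19.8 FPKM in cKO and 17.9, 29.5 and 21.7 FPKM in WT. No TFH library came near a Non-TFH library, and within each cell type the genotypes overlapped. The Non-TFH mean was 8.24 times the TFH mean in cKO mice (TFH against Non-TFH log2 change -2.99 ± 0.16, adjusted p = 2.03e-08) and 6.95 times in WT mice (-2.77 ± 0.16, adjusted p = 3.77e-08). The genotype changes, -0.11 ± 0.16 in TFH (adjusted p = 0.666) and 0.12 ± 0.16 in Non-TFH cells (adjusted p = 0.707), did not pass. The sign of the TFH value turned to 0.08 without the WT TFH library of replicate 2.

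Summed per length, the 3 survival genes reached 57.1 ± 2.04 FPKM in cKO TFH and 56.3 ± 10.3 FPKM in WT TFH cells, so that the genotype means differed by less than the spread. They reached 276 ± 7.65 FPKM in cKO Non-TFH and 204 ± 16.7 FPKM in WT Non-TFH cells (SD, n = 3 each). The composition of the sum shifted as well. Mcl1 made up 36.7 ± 3.99% of it in cKO TFH, 40.6 ± 3.72% in WT TFH, 62.8 ± 1.08% in cKO Non-TFH and 78.5 ± 1.71% in WT Non-TFH cells. Bcl2l1 made up 18.4 ± 3.19% of it in cKO TFH, 23.0 ± 2.57% in WT TFH, 7.58 ± 0.806% in cKO Non-TFH and 2.68 ± 0.133% in WT Non-TFH cells.

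**Figure D2:**
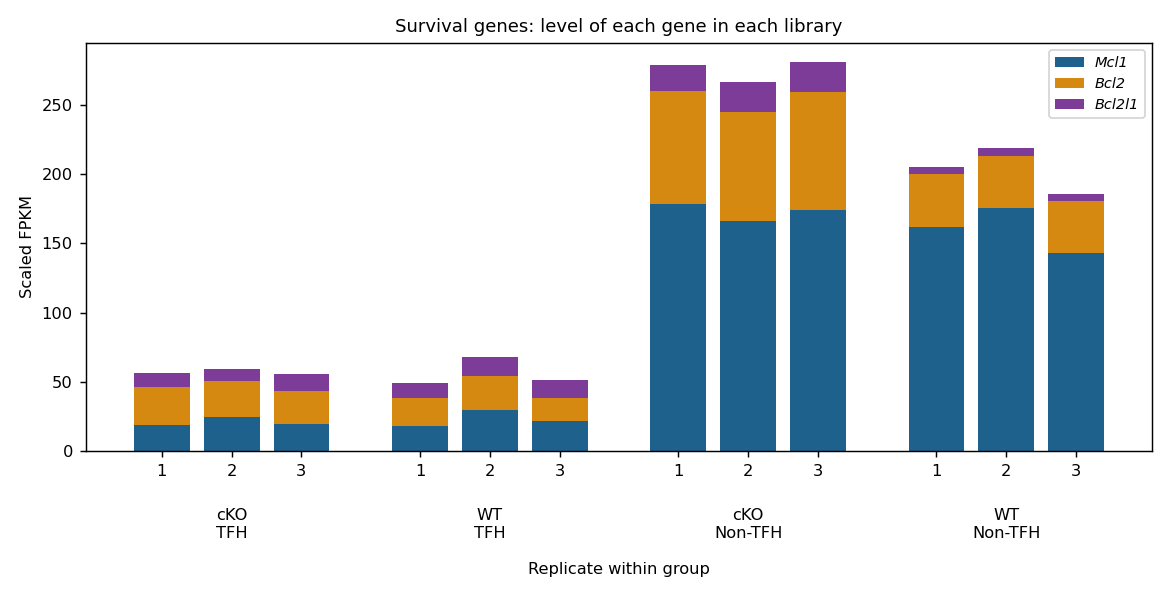
Scaled FPKM (axis from 0) of the survival genes Mcl1, Bcl2 and Bcl2l1 stacked in each library, by group and replicate. The Non-TFH stacks are several times as tall as the TFH stacks and consist mostly of Mcl1, and the cKO Non-TFH stacks exceed the WT Non-TFH stacks through Bcl2 and Bcl2l1.

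Ets1 binds DNA through the ETS domain, which recognises a GGAA core. The start regions of the survival genes and of Bcl2l11 are therefore shown, with the longer letters CCGGAA and CCGGAAGT in capitals. GGAA without these neighbours was not counted and stays in small letters. The windows are from RefSeq on GRCm38.p6, the sequence of mm10, and run from 250 bases before to 50 bases after an annotated start; 15 windows covered 9 of the 10 genes, all but Pmaip1. The letters CCGGAAGT, searched on both strands, occur in 3.89% of all 32851 windows, and the shorter CCGGAA, which every CCGGAAGT contains, in 14.9%. Both motifs were chosen after the levels and windows had been seen. In the Mcl1 window CCGGAA occurs at 63 and 30 bases before the start, which is the start of the Mcl1 entry in the deposited tables. The Bcl2 window holds neither motif, although it holds unmarked GGAA. In the upstream Bcl2l11 window CCGGAA lies on the reverse strand, read as TTCCGG, 104 bases before the start. CCGGAAGT occurs in 1 of the 9 genes, Bcl2l1, 35 bases after the start at which its entry in the deposited tables begins, and is shown in the 30 bases around it. Each line is read 5′ to 3′ on the strand of the gene.
Mcl1, chr3:95658471-95658720, plus strand: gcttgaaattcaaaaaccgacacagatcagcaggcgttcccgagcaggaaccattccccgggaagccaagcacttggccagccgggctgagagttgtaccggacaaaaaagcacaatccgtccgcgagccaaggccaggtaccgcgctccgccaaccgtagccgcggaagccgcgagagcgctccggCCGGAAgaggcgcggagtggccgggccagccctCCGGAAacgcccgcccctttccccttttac
Bcl2, chr1:106714291-106714540, minus strand: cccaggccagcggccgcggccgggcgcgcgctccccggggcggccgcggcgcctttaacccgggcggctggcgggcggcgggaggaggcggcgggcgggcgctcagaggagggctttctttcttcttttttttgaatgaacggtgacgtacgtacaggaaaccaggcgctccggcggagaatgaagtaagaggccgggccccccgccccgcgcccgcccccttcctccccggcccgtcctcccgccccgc
Bcl2l11, chr2:128125788-128126037, plus strand: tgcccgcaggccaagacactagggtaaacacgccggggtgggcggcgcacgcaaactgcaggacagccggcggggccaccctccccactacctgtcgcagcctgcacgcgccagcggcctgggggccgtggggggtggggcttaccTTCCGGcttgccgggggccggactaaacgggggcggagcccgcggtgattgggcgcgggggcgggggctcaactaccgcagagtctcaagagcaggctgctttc
Bcl2l1, chr2:152831679-152831708, minus strand: gcgctgccgcggcaCCGGAAGTggctgcgc
CCGGAA was also present in windows of Bid, 145 bases before the start, and of Bad, 175 bases before the start, and so in 5 of the 9 genes, against 16.7% of all 27025 genes with a window. The 9 genes have 15 windows and the 27025 genes have 32851, so the 9 have more windows per gene. The shares were not matched for this or for expression, and their difference was not tested. CCGGAAGT was in windows of 4.31% of all genes. The shorter CCGGAA was absent from the windows of Bcl2, Bax, Bak1 and Bbc3. The genes with the letters include some that changed with genotype (Bcl2l1, Bid, Bad) and some that did not (Mcl1, Bcl2l11). Of the genes whose windows lack them, Bcl2, Bax and Bak1 were called for genotype and Bbc3 was not. A match is a run of letters and not a site of binding.

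The effectors Bax and Bak1 went opposite ways between the cell types. Bax (chromosome 7) was among the more abundant genes of every group, with 104, 112 and 133 FPKM in cKO TFH and 97.6, 95.5 and 93.1 FPKM in WT TFH libraries. Non-TFH libraries held 71.3, 67.1 and 62.2 FPKM in cKO and 68.0, 72.9 and 71.0 FPKM in WT. The TFH libraries all lie above the Non-TFH libraries, and the cKO TFH libraries above the WT ones. Bax was higher in TFH than in Non-TFH cells in cKO mice (log2 change 0.78 ± 0.10, adjusted p = 1.81e-05, and 0.40 after quantile normalization). In WT mice it was higher by 0.43 ± 0.10 (adjusted p = 0.00187), which quantile normalization took to 0.14 (adjusted p = 0.158, the highest of a range from 1.8e-05) and no scaling to 0.80. Its genotype change in TFH cells, 0.28 ± 0.10, passed narrowly (adjusted p = 0.0479) and was lost in 10 of 14 alternative settings (adjusted p from 0.0218 to 0.252). Among them was leaving out the cKO TFH library of replicate 3, the highest, which gave 0.18.

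Bak1 (chromosome 17) was close to absent from TFH cells. It stood at 2.56, 1.46 and 1.08 FPKM in cKO TFH and at 0.398, 0.574 and 0.536 FPKM in WT TFH libraries. It stood at 26.8, 27.6 and 27.7 FPKM in cKO Non-TFH and at 21.5, 20.6 and 21.2 FPKM in WT Non-TFH libraries. Neither pair of genotypes overlapped. The log2 change between TFH and Non-TFH cells was -3.43 ± 0.18 in cKO mice (adjusted p = 1.75e-08) and -3.88 ± 0.18 in WT mice (adjusted p = 6.82e-09), with Non-TFH means 16.1 times the TFH mean in cKO and 42.0 times in WT mice. In TFH cells Bak1 was higher in cKO than in WT by 0.81 ± 0.18 (adjusted p = 0.0054), a ratio of means of 3.38. A pseudocount of 0.1 raised the log2 change to 1.51, a fit of the TFH libraries alone did not call it (adjusted p = 0.0977, the highest of a range from 0.00155), and the authors' bounds were wider than 50% in 5 of the 6 TFH entries. In Non-TFH cells the change of 0.36 ± 0.18 did not pass (adjusted p = 0.206), although fits of the Non-TFH libraries alone (0.00312) and with array weights (0.0189) called it, in a range of 0.00312 to 0.476.

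The cell types differed in which effector they carried more than in the sum of both. Bax and Bak1 together reached 118 ± 13.97 FPKM in cKO TFH, 95.9 ± 2.16 FPKM in WT TFH, 94.3 ± 4.08 FPKM in cKO Non-TFH and 91.7 ± 1.99 FPKM in WT Non-TFH cells, of which Bak1 was a small part in TFH cells. Per Bak1 transcript there were 80.2 ± 41.2 of Bax in cKO TFH, 195 ± 43.7 in WT TFH, 2.45 ± 0.207 in cKO Non-TFH and 3.35 ± 0.19 in WT Non-TFH cells. The 3 survival genes summed to 0.488 ± 0.0646 times the effectors in cKO TFH, 0.587 ± 0.108 times in WT TFH, 2.93 ± 0.168 times in cKO Non-TFH and 2.22 ± 0.177 times in WT Non-TFH cells. These are ratios of RNA levels, given as a description with no test.

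The BH3-only genes split into those low and those high in TFH cells. Bcl2l11 (chromosome 2), the gene of BIM, the main killer of T cells deprived of cytokine, was of the low kind. It stood at 4.31, 5.40 and 6.19 FPKM in cKO TFH and at 4.44, 5.10 and 4.92 FPKM in WT TFH libraries, which overlap. Non-TFH libraries held 19.6, 18.9 and 18.5 FPKM in cKO and 15.97, 16.4 and 14.4 FPKM in WT, and do not. TFH cells had less Bcl2l11 than Non-TFH cells in cKO mice (-1.68 ± 0.13, adjusted p = 5.16e-07) and in WT mice (-1.51 ± 0.13, adjusted p = 1.25e-06). Neither genotype change passed, with 0.10 ± 0.13 in TFH cells (adjusted p = 0.605) and 0.27 ± 0.13 in Non-TFH cells (adjusted p = 0.203). The Non-TFH change was called when those libraries were fitted alone (adjusted p = 0.0275) or with array weights (0.0294), in a range of 0.0275 to 0.459.

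BIM is held by BCL2 in resting T cells, and the ratio of their transcripts was lower in cKO Non-TFH than in WT Non-TFH cells. Per Bcl2 transcript there was 0.209 ± 0.0524 of Bcl2l11 in cKO TFH, 0.241 ± 0.0485 in WT TFH, 0.233 ± 0.0128 in cKO Non-TFH and 0.410 ± 0.0291 in WT Non-TFH cells. WT Non-TFH cells thus stood apart from the other groups in this ratio. In cKO mice TFH cells had less of both genes than Non-TFH cells, with log2 changes of -1.64 for Bcl2 and -1.68 for Bcl2l11.

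Bbc3 (chromosome 7), which encodes the p53-induced PUMA, followed the same pattern with more scatter. It stood at 3.03, 2.23 and 1.67 FPKM in cKO TFH and at 1.51, 2.55 and 0.834 FPKM in WT TFH libraries. It stood at 19.3, 10.995 and 11.7 FPKM in cKO Non-TFH and at 11.7, 11.3 and 17.1 FPKM in WT Non-TFH libraries, where 1 library of each genotype was well above the other two. The high WT library is replicate 3, in which the neutrophil markers also stood apart (138 FPKM in sum). The high cKO library is replicate 1, whose neutrophil sum of 47.4 FPKM lay between 57.7 (replicate 2) and 41.8 FPKM (replicate 3). The part of neutrophil transcripts was not tested. The genotypes overlapped in both cell types (log2 change 0.36 ± 0.29 in TFH, adjusted p = 0.374, and 0.04 ± 0.29 in Non-TFH cells, adjusted p = 0.962). Across the alternatives tried, the Non-TFH value ranged between -0.20 and 0.22. TFH cells had less Bbc3 than Non-TFH cells in cKO mice (-2.16 ± 0.29, adjusted p = 3.51e-05) and in WT mice (-2.48 ± 0.29, adjusted p = 1.08e-05).

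Pmaip1 (chromosome 18), the gene of NOXA, which targets MCL1, passed every comparison. It stood at 11.7, 11.98 and 7.67 FPKM in cKO TFH and at 35.2, 27.5 and 34.7 FPKM in WT TFH libraries. It stood at 6.94, 3.499 and 4.89 FPKM in cKO Non-TFH and at 0.688, 0.545 and 0.750 FPKM in WT Non-TFH libraries. No group overlapped another, and the genotypes stood in opposite order in the cell types. In TFH cells Pmaip1 fell in cKO against WT (log2 change -1.56 ± 0.22, adjusted p = 0.000311), to a mean 0.322 times that of WT. In Non-TFH cells it was higher in cKO by 1.84 ± 0.22 (adjusted p = 0.000101), or by 2.73 with a pseudocount of 0.1. The authors' bounds reached close to 0 in all 3 WT Non-TFH entries and in the cKO Non-TFH entry of replicate 1, so the ratio of means of 7.73 in Non-TFH cells rests on imprecise low values. In Non-TFH cells 3 of 4 plasma cell and 5 of 9 macrophage markers were higher in cKO as well. So were 3 of 3 proliferation, 2 of 3 regulatory T cell, 1 of 2 CD8 and 3 of 8 TFH markers. Of 5 naive T cell markers 1 was higher and 2 lower. The part of these lists was not tested. The genotype change in TFH cells minus that in Non-TFH cells was -3.41 ± 0.32 (adjusted p = 3.31e-05). TFH cells had more Pmaip1 than Non-TFH cells by 0.92 ± 0.22 in cKO mice (adjusted p = 0.00314) and by 4.33 ± 0.22 in WT mice (adjusted p = 1.43e-08).

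Bid (chromosome 6), whose protein links death receptors to mitochondria once caspase-8 has cleaved it, was also lower in cKO TFH cells. It stood at 15.97, 10.99 and 12.8 FPKM in cKO TFH and at 27.9, 30.2 and 24.1 FPKM in WT TFH libraries. It stood at 8.69, 8.73 and 6.98 FPKM in cKO Non-TFH and at 9.81, 9.13 and 8.67 FPKM in WT Non-TFH libraries. The TFH groups were well apart and the Non-TFH groups overlapped. In TFH cells the cKO mean was 0.483 times the WT mean (log2 change -1.01 ± 0.15, adjusted p = 0.000463), and in Non-TFH cells the change of -0.16 ± 0.15 did not pass (adjusted p = 0.537). The TFH minus Non-TFH difference of these changes was -0.84 ± 0.22 (adjusted p = 0.0186), but it was not called with no filter on low values (0.0805) or without the cKO Non-TFH library of replicate 1 or of replicate 2 (0.05 and 0.0501), in a range of 0.00722 to 0.0805. Bid was higher in TFH than in Non-TFH cells in cKO mice (0.63 ± 0.15, adjusted p = 0.00305) and in WT mice (1.47 ± 0.15, adjusted p = 4.32e-06).

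The macrophage markers moved with Bid and Pmaip1 between the TFH groups: 9 of 9 were lower in cKO TFH cells, at 180 to 239 FPKM in sum in cKO, against 1108 to 1982 FPKM in WT TFH libraries. Csf1r, the macrophage growth factor receptor, averaged 19.3 FPKM in cKO TFH and 152 FPKM in WT TFH cells. Within WT TFH cells, the library of the highest macrophage sum, replicate 2, had the highest Bid (30.2 FPKM) and the lowest Pmaip1 (27.5 FPKM). Also lower in cKO TFH cells were 3 of 5 B cell, 2 of 3 regulatory T cell and 3 of 5 naive T cell markers. The part of the macrophage transcripts or of these other lists in both results was not tested.

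Bad (chromosome 19), whose protein binds BCL2 and BCL-XL when growth signals cease, was higher in cKO than in WT cells of both types. It stood at 36.7, 30.1 and 38.9 FPKM in cKO TFH and at 20.2, 21.0 and 18.7 FPKM in WT TFH libraries. It stood at 19.2, 16.2 and 17.8 FPKM in cKO Non-TFH and at 8.98, 10.4 and 10.4 FPKM in WT Non-TFH libraries. Within each cell type every cKO library exceeded every WT library. Several marker lists moved with Bad in both cell types, and with Bax and Bak1 in TFH cells. In cKO TFH cells 2 of 2 CD8 and 2 of 3 proliferation markers were higher. Of 8 TFH markers 5 were higher and 1 lower there. In cKO Non-TFH cells 1 of 2 CD8 (Cd8b1), 3 of 3 proliferation and 3 of 8 TFH markers were higher. The part of these lists was not tested. The log2 change was 0.78 ± 0.12 in TFH cells (adjusted p = 0.000644) and 0.77 ± 0.12 in Non-TFH cells (adjusted p = 0.000821), with ratios of means of 1.76 in TFH and 1.78 in Non-TFH cells. Their difference was 0.0049 ± 0.17 (adjusted p = 0.99), which does not show that the changes were equal. Both genotype comparisons called Bad higher in cKO, from different libraries. The calls need not be independent, because 1 fit gave the spread for both. The labels also do not say whether TFH and Non-TFH libraries came from the same mice. TFH cells had more Bad than Non-TFH cells by 0.94 ± 0.12 in cKO mice (adjusted p = 3.16e-05) and by 0.94 ± 0.12 in WT mice (adjusted p = 3.24e-05).

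**Figure D3:**
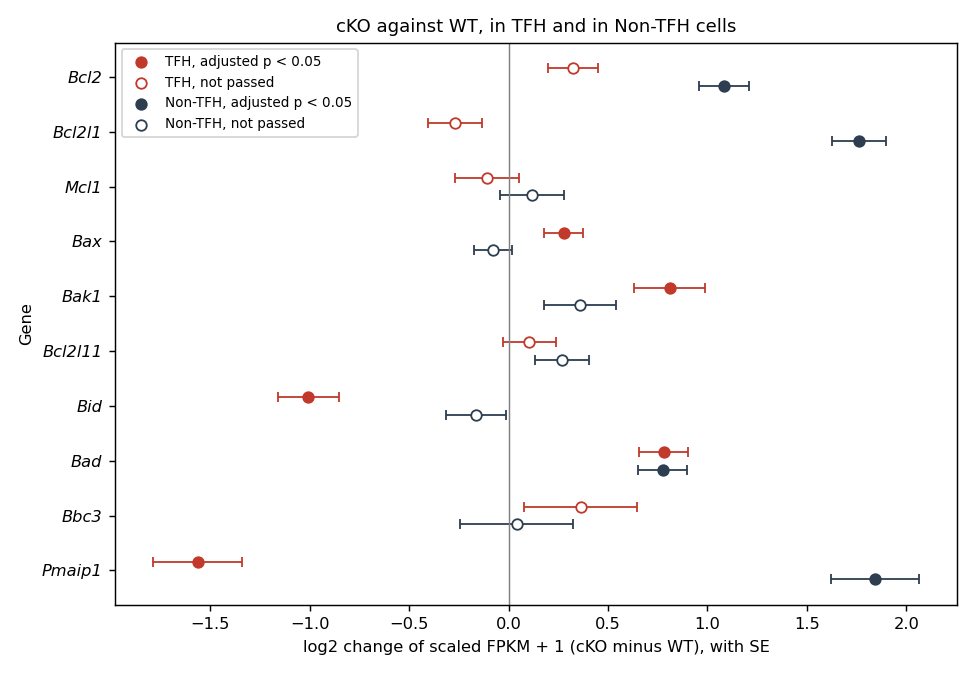
Log2 change of scaled FPKM + 1 (cKO minus WT, with SE) of each gene in TFH and in Non-TFH cells; filled points passed an adjusted p of 0.05. Pmaip1 lies at -1.56 in TFH and at 1.84 in Non-TFH cells, Bcl2l1 at -0.27 and 1.76, and Bad at 0.78 and 0.77.

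Together the 5 BH3-only genes reached 66.5 ± 5.49 FPKM in cKO TFH, 86.3 ± 2.97 FPKM in WT TFH, 64.0 ± 8.53 FPKM in cKO Non-TFH and 48.8 ± 2.25 FPKM in WT Non-TFH cells. Their make-up differed more than their sum. Bad made up 52.9 ± 4.39% in cKO TFH, 23.2 ± 0.997% in WT TFH, 27.9 ± 1.86% in cKO Non-TFH and 20.4 ± 1.39% in WT Non-TFH cells. Pmaip1 made up 15.8 ± 4.18% in cKO TFH, 37.6 ± 5.11% in WT TFH, 7.86 ± 1.72% in cKO Non-TFH and 1.35 ± 0.186% in WT Non-TFH cells. Bcl2l11 and Bbc3 were minor in TFH cells and major in Non-TFH cells. Bcl2l11 made up 8.04 ± 1.77% in cKO TFH, 5.59 ± 0.534% in WT TFH, 29.96 ± 3.0% in cKO Non-TFH and 32.1 ± 3.51% in WT Non-TFH cells.

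NOXA and MCL1 bind each other, and their transcripts stood at very different proportions. Per Mcl1 transcript there was 0.499 ± 0.116 of Pmaip1 in cKO TFH, 1.499 ± 0.522 in WT TFH, 0.0293 ± 0.00897 in cKO Non-TFH and 0.00421 ± 0.00108 in WT Non-TFH cells (SD, n = 3 each). WT TFH cells, with the most Pmaip1 and little Mcl1, and WT Non-TFH cells, with the least Pmaip1 and much Mcl1, were the extremes, and both cKO groups lay between them.

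**Figure D4:**
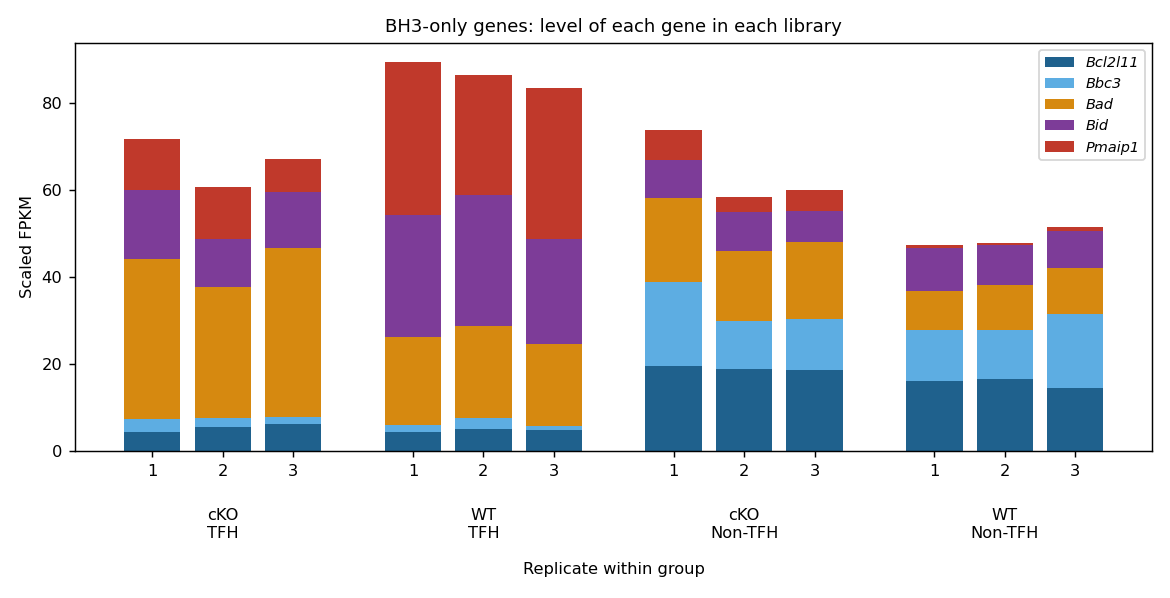
Scaled FPKM (axis from 0) of the 5 BH3-only genes stacked in each library, by group and replicate. Pmaip1 and Bid fill most of the WT TFH stacks, Bad most of the cKO TFH stacks, and Bcl2l11 and Bbc3 are visible mainly in Non-TFH libraries.

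The median size of the sort differences was larger over the 10 genes than over all tested features, which was not tested. The log2 change is understated near or under 1 FPKM, so such medians also depend on how high the features stand. Of the 10 genes, 5 in cKO and 7 in WT mice passed with an absolute log2 change of at least 1. Of all tested features, 41.2% (cKO) and 41.8% (WT) did. The median absolute log2 change between TFH and Non-TFH cells was 1.29 over the 10 genes in cKO mice, against 0.84 over all tested features, and 1.49 in WT mice, against 0.85. For genotype it was 0.34 in TFH cells, against 0.36 over all tested features, and 0.31 in Non-TFH cells, against 0.26. With no scaling between libraries the median feature shifted by 0.27 between TFH and Non-TFH cells in cKO mice and by 0.37 in WT mice. All features called then split into 4573 higher and 3009 lower in cKO mice, against 3716 and 3734 with scaling, and into 4963 higher and 2727 lower in WT mice, against 3928 and 3572. The signs of all 10 genes in both comparisons were the same with and without scaling and after quantile normalization. In rank among the 11112 tested features, Bax held percentile 92.7 in cKO TFH, 91.8 in WT TFH, 89.9 in cKO Non-TFH and 90.9 in WT Non-TFH cells. Mcl1 held percentile 66.5 in cKO TFH, 68.9 in WT TFH, 96.7 in cKO Non-TFH and 96.7 in WT Non-TFH cells.

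**Figure D5:**
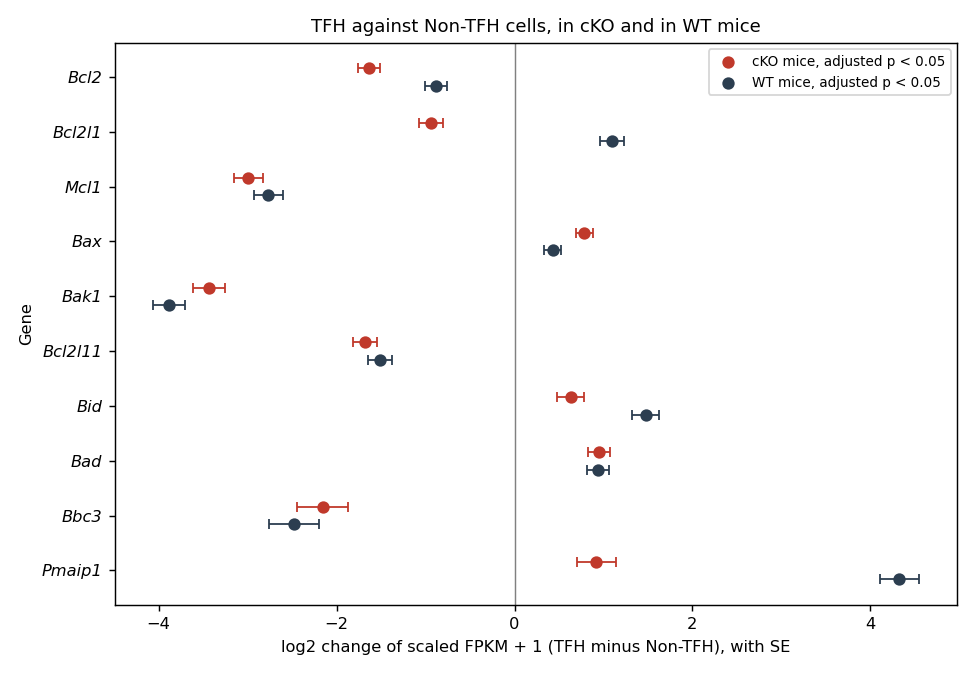
Log2 change of scaled FPKM + 1 (TFH minus Non-TFH, with SE) of each gene in cKO and in WT mice; all points passed an adjusted p of 0.05. Bcl2l1 lies at -0.94 in cKO and at 1.09 in WT mice, and Pmaip1 at 0.92 in cKO and at 4.33 in WT mice.

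The genes whose pattern over the 12 libraries lay closest to that of a member were found by the root mean square difference of centred log2 values among 9441 named features. For Bcl2 they were Ly75 (0.12), Fryl (0.15) and Tom1l2 (0.17). Ly75, an endocytic receptor, averaged 9.72 FPKM in cKO TFH, 7.25 in WT TFH, 31.0 in cKO Non-TFH and 14.6 in WT Non-TFH cells. For Bcl2l11 they were Kat6b (0.13), Gnas (0.14) and Celsr2 (0.14), and for Mcl1 they were Gltscr1 (0.15), Adpgk (0.16) and Picalm (0.17). Each likeness is a description over libraries that share their groups.

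Of 15 other relatives of BCL2, 12 had a feature and 9 were tested. In TFH cells 4 of the 9 were higher in cKO and the other 5 did not pass, with a median log2 change of 0.31; 15.6% of all tested features were higher. These were Bik (1.73 ± 0.38, adjusted p = 0.00478), a BH3-only gene, Bnip3 (1.43 ± 0.20, 0.00027), a mitophagy receptor induced by hypoxia, Bcl2l14 (1.42 ± 0.24) and Bcl2l13 (0.94 ± 0.14). Bik averaged 4.10 ± 0.946 FPKM in cKO TFH and 0.773 ± 1.27 FPKM in WT TFH cells, and 1 WT TFH library was listed at 0. Bnip3 averaged 31.5 ± 7.42 FPKM in cKO TFH and 10.9 ± 2.03 FPKM in WT TFH cells. In Non-TFH cells 4 of the 9 were again higher in cKO and the other 5 did not pass, with a median of 0.56; 11.8% of all tested features were higher. These were Bmf (1.14 ± 0.23, adjusted p = 0.00347), a BH3-only gene tied to the cytoskeleton, Bcl2l2 (0.99 ± 0.23, 0.0129), which encodes the survival protein BCL-W, Bcl2l14 (0.93 ± 0.24) and Bcl2l13 (0.56 ± 0.14). Bmf averaged 4.23 ± 0.902 FPKM in cKO Non-TFH and 1.38 ± 0.454 FPKM in WT Non-TFH cells. Bcl2l2 had no value in 1 WT Non-TFH and 1 WT TFH library, which its fit left out. Bcl2a1a, Bcl2a1b and Bcl2a1d, near-identical survival genes, had no entry of their own in enough libraries and were not analysed here.

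Downstream of the mitochondria act the caspases and their inhibitors. Of 15 tested genes 1 was higher and 2 lower in cKO TFH cells, where 30.7% of all tested features passed. Birc5, survivin, which also serves mitosis, was higher (1.20 ± 0.14). Casp9, the initiator caspase of the apoptosome, was lower (-0.74 ± 0.14, adjusted p = 0.00174), as was Casp8, the initiator of the death receptor pathway (-0.56 ± 0.10, 0.00222). Casp9 averaged 3.43 ± 0.242 FPKM in cKO TFH and 6.43 ± 0.621 FPKM in WT TFH cells. In cKO Non-TFH cells 3 were higher and the other 12 did not pass, and 20.3% of all tested features passed. Birc5 was 1 of the 3 (1.44 ± 0.14). Proliferation markers moved with Birc5: 2 of 3 were higher in cKO TFH and 3 of 3 in cKO Non-TFH cells, and their part was not tested. TFH cells had less Xiap, a caspase inhibitor, than Non-TFH cells, with log2 changes of -1.92 ± 0.17 in cKO and -1.86 ± 0.19 in WT mice. In the comparison of TFH with Non-TFH cells 7 of the 15 were higher and 4 lower in cKO mice, and 7 higher and 3 lower in WT mice, where 67% (cKO) and 67.5% (WT) of all tested features passed.

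Of 10 death receptor genes tested, 1 was higher and 4 lower in cKO TFH cells, and 2 were lower in cKO Non-TFH cells, where the other 8 did not pass. Of all tested features 30.7% passed in TFH and 20.3% in Non-TFH cells. The median log2 change was -0.31 in TFH and 0.09 in Non-TFH cells, against 0.04 and 0.03 over all tested features. Tnfrsf1a, the TNF receptor with a death domain, averaged 3.88 ± 0.642 FPKM in cKO TFH and 16.01 ± 1.39 FPKM in WT TFH cells (-1.81 ± 0.13, adjusted p = 1.92e-06). It averaged 9.78 ± 0.754 FPKM in cKO Non-TFH and 24.5 ± 0.141 FPKM in WT Non-TFH cells (-1.25 ± 0.13). Cflar, which encodes FLIP, the inhibitor of caspase-8, was lower in cKO TFH cells (-0.95 ± 0.14) and in cKO Non-TFH cells (-0.50 ± 0.14). Fasl (-1.22 ± 0.29) and Tnfrsf1b (-1.34 ± 0.16) were lower in cKO TFH cells, where the macrophage and B cell markers were lower too. For Tnfrsf1b and Fas the genotype changes differed between the cell types (TFH minus Non-TFH -1.47 ± 0.22 and -0.996 ± 0.28).

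Among p53 and its targets, the list to which Bbc3 and Pmaip1 would also belong, 3 of 12 tested genes were higher and 1 lower in cKO TFH cells, and 5 were higher in cKO Non-TFH cells, where the other 7 did not pass. Of all tested features 15.6% were higher and 15% lower in cKO TFH cells, 30.7% in all. In cKO Non-TFH cells 11.8% were higher and 8.57% lower, 20.3% in all. Cdkn1a, the cell cycle inhibitor p21, averaged 66.7 ± 22.9 FPKM in cKO TFH and 4.67 ± 1.07 FPKM in WT TFH cells (3.53 ± 0.29, adjusted p = 6.79e-06). It averaged 3.002 ± 1.19 FPKM in cKO Non-TFH and 0.157 ± 0.0398 FPKM in WT Non-TFH cells (1.74 ± 0.29). Gadd45a, a stress response gene, was higher in cKO by 0.82 ± 0.22 in TFH and by 0.98 ± 0.22 in Non-TFH cells. Perp was higher (1.62 ± 0.38) and Trp53inp1 lower (-0.98 ± 0.13) in cKO TFH cells, and Phlda3 (0.91 ± 0.21) and Sesn2 (0.81 ± 0.20) were higher in cKO Non-TFH cells. Cdkn1a and Pmaip1 moved the same way with genotype in Non-TFH cells and opposite ways in TFH cells. Bax, another p53 target, had a log2 change of 0.28 in TFH cells. Trp53 itself averaged 70.5 ± 7.81 FPKM in cKO TFH and 71.2 ± 9.06 FPKM in WT TFH cells, and RNA levels do not show the activity of its protein. The part of p53 in the levels of these genes was not tested.

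Of 15 tested survival cytokine receptors and signalling genes, 6 were lower in cKO TFH cells and the other 9 did not pass, with a median log2 change of -0.35; 15% of all tested features were lower. In cKO Non-TFH cells 5 were higher and 2 lower, with a median of 0.25; 20.3% of all tested features passed. Il7r, the receptor of the cytokine that sustains Bcl2 in resting T cells, was lower in cKO TFH cells (-1.59 ± 0.23). In Non-TFH cells, where Bcl2 was higher, Il7r averaged 95.6 ± 13.7 FPKM in cKO and 287 ± 16.4 FPKM in WT (-1.58 ± 0.23, adjusted p = 0.000446). Il2rb, the beta chain that IL-2 and IL-15 both use, was higher in cKO Non-TFH cells. It averaged 90.8 ± 2.08 FPKM in cKO Non-TFH and 29.98 ± 1.21 FPKM in WT Non-TFH cells (1.57 ± 0.08). In TFH cells it was lower in cKO (-0.92 ± 0.08), at 92.7 ± 2.62 FPKM in cKO and 176 ± 14.1 FPKM in WT. Its genotype changes differed between the cell types (TFH minus Non-TFH -2.48 ± 0.11). The part of either receptor in the level of Bcl2 was not tested. Il4ra, the receptor of IL-4, was higher in cKO Non-TFH cells by 1.22 ± 0.14. Pim2, a survival kinase, was lower there (-1.08 ± 0.12), in a fit that left out 1 cKO Non-TFH library with no value. Il2ra (-2.03 ± 0.24) and Foxo1 (-0.89 ± 0.15), a quiescence factor that can drive Bcl2l11, were lower in cKO TFH cells. Between cell types, 11 of the 15 were lower and 1 higher in TFH cells of cKO mice, and 7 lower and 3 higher in WT mice, beside 67% of all tested features that passed in cKO and 67.5% in WT mice. Foxo3 is the other FOXO factor known to drive Bcl2l11. Its log2 change (TFH minus Non-TFH) was -3.84 ± 0.16 in cKO and -3.34 ± 0.16 in WT mice. It averaged 0.295 FPKM in cKO TFH, 0.537 in WT TFH, 17.5 in cKO Non-TFH and 14.5 in WT Non-TFH cells. Bcl2l11 had the same sign, as did 33.6% (cKO) and 32.1% (WT) of all tested features that passed as lower. The part of either FOXO factor in the level of Bcl2l11 was not tested.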

How the data were processed

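RNA was made into libraries with a stranded poly(A) kit (TruSeq Stranded mRNA), per the labels' protocols. The authors deposited 1 Cufflinks gene table per library with FPKM per gene. Per the submitters' processing notes, the tools were Bowtie and Bowtie2, TopHat and TopHat2, Cuffdiff and Cufflinks, with cutadapt and FastQC, on mm10. No source used here gives a version, order or setting. Cufflinks estimates share fragments between overlapping genes, and each library was quantified alone.

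From these files, symbols that kept a separate entry in 2 or more libraries per group (22451) and joint entries (797) were used as features. FPKM was divided by median-ratio factors (0.857 to 1.14, over 7160 features). The WT Non-TFH table of replicate 1 lacks chromosome Y entries and most chromosome X entries, where no member lies. Features that reached 1 FPKM in 3 or more libraries (11112) entered limma 3.58.1 (R 4.3.3; trend and robust moderation) on log2(scaled FPKM + 1), all 12 libraries in 1 fit with no block, adjusted by Benjamini-Hochberg per comparison at 0.05. The fit was checked on simulated data. Other steps used Python 3.11.15 with numpy 2.4.6, pandas 2.3.3 and matplotlib 3.10.9.

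The members, gene lists and tests were chosen with earlier results of these data known. All 10 members are described; of other lists at most 4 called genes with the largest absolute log2 change are named per comparison, and 3 look-alikes each for Bcl2, Bcl2l11 and Mcl1. Some genes of these lists are counted but not reported here by name. Alternatives changed the pseudocount, filter, scaling, libraries fitted, weights, replicate block and single libraries.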

Additional observations from a re-analysis of the deposited data

Results flagged for a closer look

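In 4 of the 10 genes the cKO against WT change was not the same in TFH as in Non-TFH cells by limma's test of the difference. It was -0.76 for Bcl2 (TFH minus Non-TFH, log2 scale), -2.03 for Bcl2l1, -0.84 for Bid and -3.41 for Pmaip1, with adjusted p of 0.0121, 4.27e-05, 0.0186 and 3.31e-05. Such a difference passed for 17.4% of all tested features, and 10.5% passed with a negative sign, as these 4 did. Pmaip1 moved in opposite directions in each cell type, Bcl2 and Bcl2l1 changed in Non-TFH cells, and Bid changed in TFH cells.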

How the results depend on the processing

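Over the 50 single-gene results, 750 alternative values were computed: 715 kept their sign and side of the threshold, 16 lost the call, 6 gained it and 13 turned sign. All 13 belong to values near 0 that never passed. They are Mcl1 in TFH cells (-0.266 to 0.0782 over single-library omissions), Bbc3 in Non-TFH cells (-0.199 to 0.218) and the difference for Bad (-0.0682 to 0.110). The Bad difference was also -0.0214 with a pseudocount of 0.1, -0.0497 with no scaling and -0.159 with quantile normalization. Fitting only the compared groups left 3 of the 10 genes called for genotype in TFH cells, with 2199 of all features in TFH and 3631 in Non-TFH cells. Array weights gave 2226 in TFH and 4160 in Non-TFH cells. No filter gave 2157 in TFH and 1440 in Non-TFH cells, and 1061 for the difference, where 2 of the 10 genes stayed called. Omitting each library in turn left 4 to 5 of the 10 genes for genotype in TFH (2891 to 3334 of all features), 4 in Non-TFH (1683 to 1797), 10 for TFH against Non-TFH in cKO (6912 to 7193) and in WT mice (6955 to 7367), and 3 to 5 for the difference (1498 to 2090). With the replicate number as a block, 4 of the 10 genes passed for genotype in TFH (3233 of all features), 4 in Non-TFH (2103), 10 for TFH against Non-TFH in cKO (7385) and in WT mice (7409), and 4 for the difference (1721). The labels do not say whether same-numbered TFH and Non-TFH libraries are paired. In 18 same-numbered pairs the correlation of deviations lay between -0.034 and 0.059, and none was over 0.1. This cannot decide the question, because sorts from 1 mouse can also correlate weakly and the pairs include some across genotypes. The files give no counts, so depth sets no stated limit; Bak1 in TFH cells and Pmaip1 in WT Non-TFH cells lie under 3 and 1 FPKM, where values are least precise.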
